A study of Homo sapiens with 4 samples.

Results

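Human MelJuSo cells, an established skin melanoma line, received 10 µM etoposide plus 10 µM aclarubicin for 2 h, and their RNA was collected 1 day after the drugs had been washed away. Their expression array was set against the array of untreated cells, for which the labels give no exposure or time, so time in culture may differ between the 2 groups. A gene was included when a probe with 1 gene symbol had a detection p under 0.01, the chance that a blank bead is as bright, on at least 1 of the 2 arrays. This gave 9007 genes of the 10077 detected on any of the 4 arrays of the series, whose other 2 arrays carried aclarubicin alone at 10 µM and doxorubicin at 9 µM. The labels do not give the order in which the paired drugs were added.

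Topoisomerase II passes one DNA duplex through a break in another and is needed to untangle chromosomes. Etoposide holds the enzyme on the cut DNA, which leaves double-strand breaks. Aclarubicin is an anthracycline that slides between DNA bases, keeps topoisomerase II from binding DNA, and is known to displace histones from chromatin. Cells that meet such drugs are known for p53 activation, arrest before mitosis and, with strong blocks of transcription, for a loss of short-lived messages.

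Each group had 1 array, so there is no replicate spread, no test was possible, and each difference below compares 2 arrays and not 2 conditions. The only error at hand is technical. In 1269 genes with at least 2 probes detected on both arrays, the log2 differences of the 2 brightest probes were compared. The SD of their disagreement, divided by the square root of 2 to give that of 1 probe, was 0.46. This value, called the probe disagreement below, does not cover genes detected on only 1 array. Probes detected numbered 13521 on the untreated array and 9128 after the combination, and the upper quartile of the bead signal was 88.0 and 63.2, while the 99th percentile was 5473 and 6116. The combination array was thus dimmer over most probes and as bright at the top. Levels are background-corrected, quantile-normalized log2 intensities, which give every array one distribution and remove any shift shared by most genes. The median difference over all genes was -0.13 after this step and -1.13 without scaling, so a list is set here beside both medians, and a gene whose signal barely moved can stand above 0. In bulk RNA, fewer cells and less RNA per cell cannot be told apart.

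The cells carried part of the pigment-cell programme. Of 25 melanocyte-lineage genes with a probe, 16 were detected untreated and 11 after the combination, among them TYRP1, an enzyme of melanin synthesis, at a signal of 2111 and 1823. MLANA and TYR, both defining melanocyte genes, were not detected on either array, with signals of 37.7 and 43.1 for MLANA and of 44.8 and 50.7 for TYR.

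After the combination 1772 genes (19.7% of those measured) were at least 2-fold higher and 2542 (28.2%) at least 2-fold lower, and 4693 lay between. Without scaling these numbers were 284 and 4824, so the number of genes counted as higher depends on the scaling. At 8-fold, 77 genes were higher and 270 lower. Genes detected on both arrays numbered 6124, of which 1605 were higher and 1067 lower; a further 2729 genes were detected in untreated cells only and 154 after the combination only. Where a gene had several probes, all of them pointed the same way in 336 of 385 higher and 590 of 633 lower genes.

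**Figure D1:**
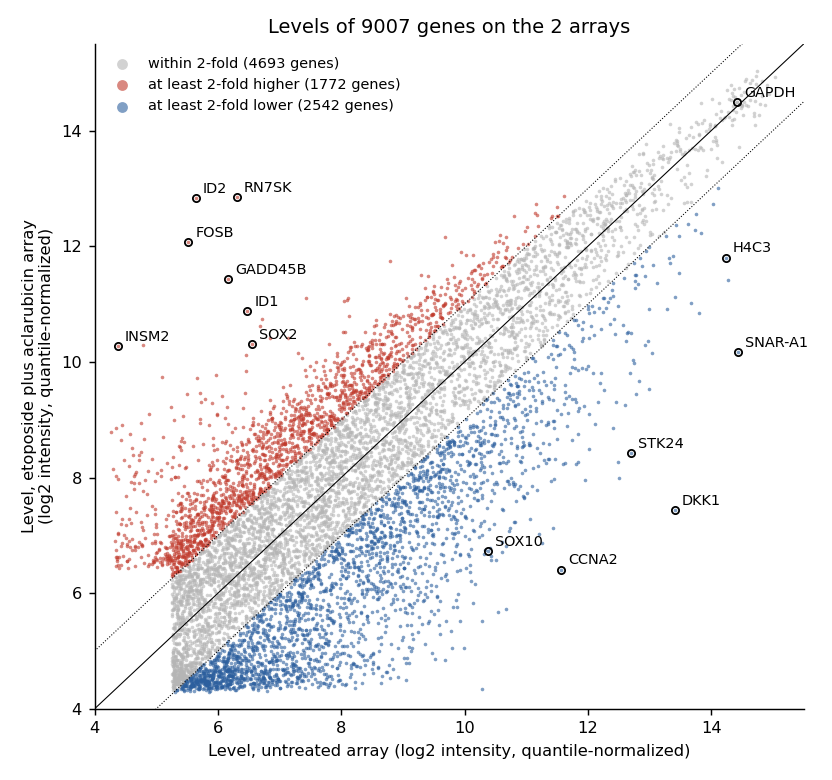
Level of each of 9007 genes on the untreated array (x) and the etoposide plus aclarubicin array (y), both as quantile-normalized log2 intensity; the solid line marks equal levels and the dotted lines a 2-fold difference. The 1772 higher genes (red) include ID2, RN7SK and FOSB, and the 2542 lower genes (blue) include DKK1, CCNA2 and SNAR-A1.

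The genes furthest up were inhibitors of differentiation, stress-induced transcription factors and 7SK RNA. ID2, a helix-loop-helix protein that blocks the DNA binding of its partners, went from a signal of 94.4 untreated to 8131, a 146-fold difference after normalization, with both of its probes higher. FOSB, a subunit of the AP-1 transcription factor, went from 87.5 to 4276, a 94.1-fold difference. RN7SK, the non-coding RNA that holds the elongation kinase P-TEFb inactive, went from 146 to 8232, a 93.0-fold difference. Their untreated signals were below the median of 339 over all measured genes, and after the combination their signals were many times above the median of 132.

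GADD45B, a stress sensor that activates MAP kinases, went from 133 to 2506 (38.6-fold). ID1, a relative of ID2, was at 162 and 1575 (21.3-fold). FOS, the partner of JUN in AP-1, was at 96.0 and 601 (16.6-fold), and ATF3, a stress-induced repressor of the same family, at 186 and 1267 (15.4-fold). Smooth muscle actin, ACTA2, stood at 191 and 1403 (16.4-fold), and SOX2, a stem-cell transcription factor, at 170 and 965 (13.5-fold). CITED2, a cofactor that competes for CBP and p300, was at 299 and 1900 (12.9-fold), and CEBPD, a leucine zipper factor of acute stress, at 160 and 836 (12.7-fold). The small nucleolar RNA SNORD43, the X-linked germ-cell gene VCX3B, the Wnt regulator DACT3 and the immediate early gene IER5L completed the 15 highest, between 13.1-fold and 15.4-fold. Each of these 15 was also higher without scaling, with log2 differences from 2.64 for CEBPD to 6.99 for ID2.

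The sequence just upstream of 6 such genes is shown to let a reader see the core promoters of the genes described. Each runs from 200 bases before to 10 after the transcription start, from RefSeq on GRCh38.p14, at chr2:8681856-8682065 (plus strand) for ID2, chr19:45467796-45468005 (plus) for FOSB, chr20:31605089-31605298 (plus) for ID1, chr14:75278628-75278837 (plus) for FOS, chr5:138465279-138465488 (plus) for EGR1 and chr6:26216679-26216888 (minus) for H2BC8. Capitals mark the letters TATAAA, known as the TATA box, the box CCAAT, the GC box with the letters GGGCGG, the cAMP response element with the letters TGACGTCA, an AP-1 site with the letters TGACTCA, or the serum response element core, on either strand, with overlapping matches run together.
ID2: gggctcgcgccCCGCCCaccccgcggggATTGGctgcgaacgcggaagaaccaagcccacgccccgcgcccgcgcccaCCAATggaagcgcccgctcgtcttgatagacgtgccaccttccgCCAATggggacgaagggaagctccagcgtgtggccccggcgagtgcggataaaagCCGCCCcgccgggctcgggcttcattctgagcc
FOSB: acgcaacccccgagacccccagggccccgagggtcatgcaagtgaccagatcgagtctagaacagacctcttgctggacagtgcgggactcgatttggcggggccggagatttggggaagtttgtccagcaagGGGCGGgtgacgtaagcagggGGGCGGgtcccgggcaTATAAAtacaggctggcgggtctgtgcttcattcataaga
ID1: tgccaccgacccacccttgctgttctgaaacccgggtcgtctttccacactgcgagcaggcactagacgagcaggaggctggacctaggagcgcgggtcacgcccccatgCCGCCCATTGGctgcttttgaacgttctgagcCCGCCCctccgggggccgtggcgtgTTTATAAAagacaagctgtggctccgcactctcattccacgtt
FOS: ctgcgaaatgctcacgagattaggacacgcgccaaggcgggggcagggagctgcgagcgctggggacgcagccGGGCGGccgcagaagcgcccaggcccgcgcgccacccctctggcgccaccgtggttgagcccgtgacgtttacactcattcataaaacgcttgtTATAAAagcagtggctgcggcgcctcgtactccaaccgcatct
EGR1: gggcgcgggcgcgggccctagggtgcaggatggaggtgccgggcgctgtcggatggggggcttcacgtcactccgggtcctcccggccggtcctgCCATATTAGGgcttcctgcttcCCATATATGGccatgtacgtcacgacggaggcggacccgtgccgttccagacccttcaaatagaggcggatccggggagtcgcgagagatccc
H2BC8: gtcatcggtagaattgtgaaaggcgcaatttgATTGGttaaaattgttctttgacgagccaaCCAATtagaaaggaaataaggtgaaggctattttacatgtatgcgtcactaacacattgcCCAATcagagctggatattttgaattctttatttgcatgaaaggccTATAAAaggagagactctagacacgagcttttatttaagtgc

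FOSB, ID1, FOS and H2BC8 held TATAAA with its first base 30 to 33 bases before the start, ID1 on both strands. EGR1 held 2 serum response element cores, which start at -105 and -83. ID2 held 3 CCAAT boxes and 2 GC boxes and no TATAAA in these letters. Over the 300-base windows (250 before to 50 after the start) of 7507 measured genes with an entry, 5.41% held TATAAA; the share was 24.1% of 58 genes at least 8-fold higher, 4.51% of 244 genes at least 8-fold lower, 8.39% of 1407 genes at least 2-fold higher and 4.86% of 2183 at least 2-fold lower. Of the 77 genes at least 8-fold higher only 39 were detected on both arrays; with both arrays required, TATAAA was in 24.1% of 29 such promoters and 5.31% of all 5120. Replication-dependent histones made up 6 of the 58, and without them the share was 17.3% of 52. The serum response element core was in 8.62% of the genes at least 8-fold higher and 1.05% of all measured. GGGCGG was in 62.1% and 71.2%, and TGACTCA in 3.45% and 2.80%. A match describes the letters in the window and not a bound site.

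The genes furthest down were a secreted Wnt inhibitor and factors of RNA handling, ribosome assembly and mitosis. DKK1, a secreted antagonist of Wnt signalling, went from 9723 to 127, 63.0-fold lower, with both probes lower. MALSU1, an assembly factor of the mitochondrial ribosome, went from 5473 to 176 (22.8-fold lower). PTBP3, a splicing regulator of the polypyrimidine-tract family, went from 2708 to 96.7 (20.95-fold lower). The kinase STK24 went from 6136 to 233 (19.5-fold lower) and the membrane haem-binding protein PGRMC2 from 3034 to 108 (20.03-fold lower). SNAR-A1, a small RNA made by RNA polymerase III, was at 20346 and 866 (19.2-fold lower), so small RNAs stood at both ends of the ranking.

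NOL11, NOC3L and EMG1 act in making the small or large ribosomal subunit, and were 18.6-fold, 15.3-fold and 13.2-fold lower. EXOSC3, a core subunit of the RNA exosome, was at 4112 and 172 (16.1-fold lower). SMC3, a cohesin subunit that holds sister chromatids together, was at 1896 and 90.5 (14.9-fold lower), and CCNB2, a mitotic cyclin, at 2447 and 118 (13.7-fold lower). DCUN1D5, SERTAD2 and DNAJA2, which act in cullin neddylation, transcription and protein folding, made up the 15 lowest at 18.2-fold, 14.5-fold and 14.4-fold lower. Most of these ended within reach of the background, at 85.6 to 233 on an array whose median probe read 49.7, so their folds are less certain in size than in direction.

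**Figure D2:**
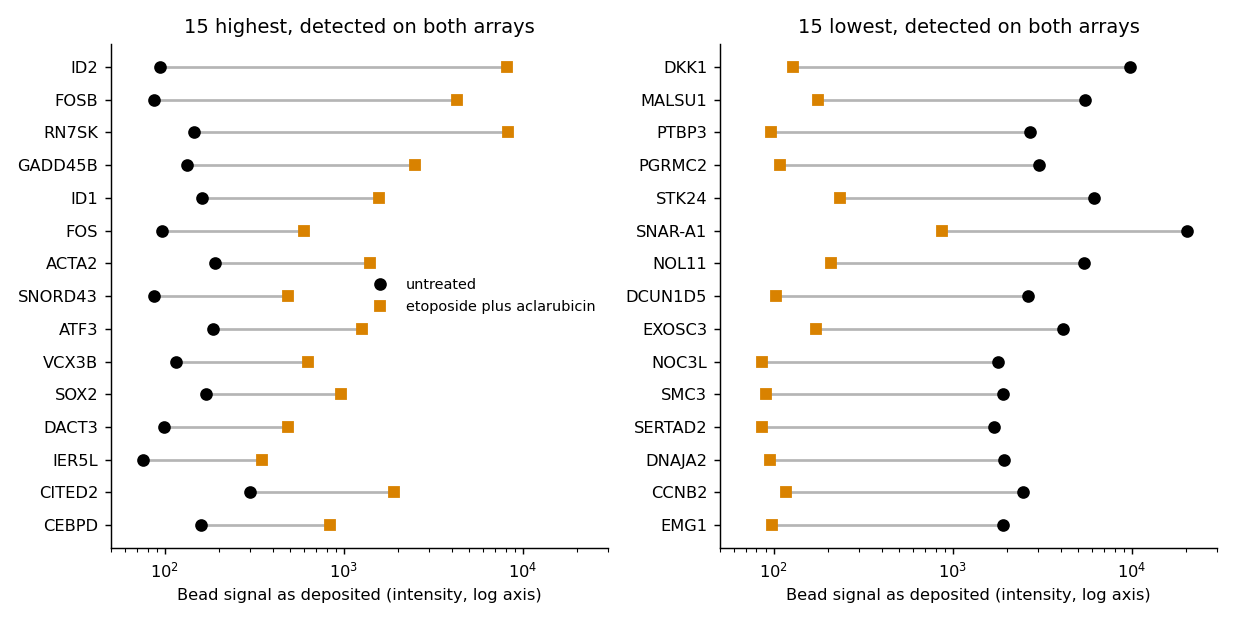
Deposited bead signal (log axis) of the 15 highest and 15 lowest genes detected on both arrays, untreated (circles) and after etoposide plus aclarubicin (squares). In every one of these genes the signal itself moved in the stated direction, from 94.4 to 8131 in ID2 and from 9723 to 127 in DKK1.

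Some genes crossed the limit of detection. Their folds are lower bounds, computed on normalized levels with the dim value raised, where it was smaller, to the lowest level detected on that array. After the combination only, RIMBP3, a member of the RIM-binding protein family, was detected at a signal of 954 against 57.7 (at least 33.0-fold higher). INSM2, a zinc finger repressor of neuroendocrine cells, was at 934 against 42.8 (at least 32.4-fold higher). SNORD46, ATP2B1-AS1, RGS16, CD14, EFNA2 and HAND1 followed at between 12.1-fold and 22.4-fold. In untreated cells only, CCNA2, the cyclin of S and G2 phase, was detected at 3271 against 80.5 (at least 35.3-fold lower after the combination). KIF11, the motor that separates spindle poles, was at 1945 against 66.0 (at least 18.98-fold lower), and SPRED1, which restrains RAS signalling, at 1836 against 65.2 (at least 17.4-fold lower). CENPF, UCN2, KIF20B, PDCD10 and CCNF followed at 12.7-fold to 14.5-fold; 1 of the 4 probes of PDCD10 pointed the other way.

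Immediate early genes, which cells switch on without new protein synthesis, were mostly higher. Of 29 measured, 17 were higher and 5 lower, with a median of 1.74, and 13 higher and 9 lower without scaling (median 0.71). JUN, the central AP-1 subunit, was at 451 and 1843, a log2 difference of 2.98. The zinc finger factors EGR1 (208 and 1066, 3.56) and KLF4 (189 and 389, 2.45), the orphan nuclear receptor NR4A2 (131 and 408, 3.08) and the mRNA-destabilising protein ZFP36 (160 and 666, 3.39) were higher too. Other members went down. JUND, an AP-1 subunit present in resting cells, was at 3803 and 388 (-2.69), FOSL1 at 1319 and 129 (-2.52), the matricellular factor CCN1 at 1561 and 166 (-2.37), PPP1R15A at 2336 and 398 (-1.81) and MAFF at 1269 and 231 (-1.51).

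The ID proteins and the BMP pathway that induces them did not move as one. Of 16 measured genes 7 were higher and 4 lower (median -0.12), but 4 and 7 without scaling (median -0.86). Beside ID1 and ID2, the ligand BMP4 was at 79.6 and 203 (2.85) and the Notch target HEY1 at 155 and 322 (2.48). ID3, their close relative, was at 449 and 164 (-0.21), within the probe disagreement. The signal transducer SMAD4 (1013 and 131, -1.99), its relative SMAD5 (1215 and 268, -1.19), the receptor ACVR1 (581 and 101, -1.57) and the ID partner TCF12 (565 and 98.2, -1.59) were lower.

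7SK RNA was far higher, and the genes of the proteins it works with were mixed. Of 19 genes of P-TEFb and elongation control, 3 were higher and 8 lower (median -0.61), and 2 and 12 without scaling (median -1.65). But 7 of the 19 were included only through the untreated array, and over the 11 detected on both arrays the median was 0.19. LARP7, which binds and stabilises 7SK, was at 812 and 132 (-1.60). The probes of CCNT1, the cyclin of P-TEFb, disagreed: its brightest was not detected after the combination, and its probe detected on both arrays gave 0.31. HEXIM1, the P-TEFb inhibitor that acts with 7SK, was detected only after the combination, at 58.0 and 106 (at least 3.56-fold higher). Small nucleolar and Cajal body RNAs, which guide RNA modification, were higher in 23 of 38 and lower in 2 (median 1.46), but in 3 and 8 without scaling (median 0.13). SNORD21 was at 84.4 and 198 (2.71). Of 6 other small RNAs, RNU11, a minor spliceosome RNA, was detected only after the combination (64.2 and 171, at least 6.46-fold higher), and RN7SL1, the RNA of the signal recognition particle, stood at 15018 and 21321 (0.13).

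Replication-dependent histone genes, whose messages normally end in a stem-loop and not in a poly(A) tail, were mostly higher. Of 27 measured, 25 were higher and 1 lower, with a median of 2.01, and 14 higher and 1 lower without scaling (median 1.03). In 14 of the 27 the gene was included only through the combination array, so those members had to be higher; over the 13 detected on both arrays the median was 1.78. H3C13 was at 55.8 and 227 (at least 8.75-fold higher), H2BC8 at 56.0 and 215 (at least 8.28-fold), H2BC21 at 54.4 and 187 (at least 7.14-fold) and H2AC18 at 112 and 431 (3.39). H2BC12 went from 1013 to 2076 (1.72). H4C3 was the 1 lower member, at 17406 and 3364 (-2.43). TATAAA was in 70.8% of 24 promoters of the list, as in that of H2BC8 above. Near-identical histone genes can share a probe's target, so single members are uncertain. SLBP, which binds the stem-loop of these messages, was at 1238 and 127 (-2.44). Of 10 histone variants 3 were higher and 1 lower, but 0 and 2 without scaling; H2AX, the variant phosphorylated at breaks, was at 2027 and 477 (-1.31).

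Genes of G2 and mitosis were the list of 10 or more genes furthest down. Of 52 genes of G2 and mitosis 0 were higher and 39 lower, with a median of -2.30, and 46 were lower without scaling (median -3.17). The untreated array alone brought in 14 of the 52, which favours lower differences, and over the 38 detected on both arrays the median was -1.74. Beside CCNA2, KIF11 and CENPF, the mitotic kinase TTK was at 1080 and 60.3 (at least 9.00-fold lower) and the cyclin CCNB1 at 896 and 63.9 (at least 7.14-fold lower). A few members held their signal. BIRC5, the inhibitor of apoptosis survivin, stood at 3802 and 3701 (0.08), the CDK subunit CKS1B at 5658 and 7659 (0.19) and the kinetochore protein CENPN at 1949 and 2483 (0.75). Of 55 genes of G1/S and replication 1 was higher and 24 lower (43.6%, against 28.2% of all genes), with a median of -0.79. But 12 of the 55 were included only through the untreated array, and over the 43 detected on both arrays the median was -0.19. PCNA, the sliding clamp of DNA polymerase, was at 4682 and 654 (-2.41), the origin subunit ORC5 at 996 and 71.5 (at least 8.13-fold lower) and the phosphatase CDC25A at 626 and 70.5 (at least 4.71-fold lower), while TYMS, which makes thymidylate, stood at 5934 and 8661 (0.28). Among CDK inhibitors and RB-family genes 1 of 15 was higher and 5 lower, and CDK6 was at 1042 and 55.4 (at least 8.59-fold lower).

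The drug target itself was lower. TOP2A, the topoisomerase II of dividing cells, was at 3154 and 394 (-2.34), and TOP2B, the form also present in non-dividing cells, at 1219 and 265 (-1.22). TOP1 was detected in untreated cells only, at 107 and 57.5, with a bound under 2-fold. Of 12 topoisomerases and adduct-removing enzymes 1 was higher and 3 lower (25%, near the 28.2% of all genes). The higher one was TDP1, which clips topoisomerase I adducts, at 886 and 1672 (1.71), with only 1 of its 3 probes higher. Of 49 DNA repair genes 2 were higher and 20 lower (40.8%, against 28.2% of all genes), with a median of -0.82. But 17 of the 49 were included only through the untreated array, which favours lower differences. Over the 32 detected on both arrays the median was -0.21. TOPBP1, an activator of the ATR kinase, was at 1080 and 68.4 (at least 8.99-fold lower), the mismatch repair protein MSH6 at 3394 and 207 (-3.38) and the nuclease EXO1 at 1225 and 104 (-2.81). XRCC2, which acts in homologous recombination, was higher at 534 and 1167 (2.13).

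Targets of p53 were mixed. Of 26 measured 6 were higher and 3 lower (median 0.34), but 3 and 11 without scaling (median -0.59). CDKN1A, the p53-induced CDK inhibitor p21, stood at 727 and 658, a log2 difference of 0.92 after normalization and of -0.15 without scaling. MDM2, the p53-induced ubiquitin ligase, was not detected on either array, at 70.2 and 62.0. PMAIP1, the pro-death protein NOXA, was at 297 and 679 (2.44) and SAT1, a polyamine acetylase, at 1779 and 4277 (1.59), whereas the phosphatase PPM1D was at 535 and 88.3 (-1.74). Of 23 BCL2-family and caspase genes 4 were higher and 7 lower (30.4%, near the 28.2% of all genes), but 1 and 13 without scaling. The 4 higher were the pro-death PMAIP1, BAD (556 and 730, 1.48), BID (221 and 183, 1.11) and CYCS (266 and 223, 1.11). Among the lower were the anti-death proteins BCL2L1 (944 and 161, -1.51) and MCL1 (510 and 107, -1.21). The pro-death caspase CASP2 (1438 and 184, -2.07) and DIABLO (2333 and 368, -1.91, not shared by every probe) were lower too.

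Growth-signal and lineage genes were mixed. Of 21 outputs and brakes of the MAP kinase pathway 2 were higher and 10 lower (47.6%, against 28.2% of all genes). The median was -0.71, and without scaling 0 were higher and 15 lower. The untreated array alone brought in 5 of the 21, and over the 16 detected on both arrays the median was -0.55. SPRED2 was at 531 and 53.7 (at least 3.87-fold lower), PHLDA1 at 2595 and 155 (-3.39) and SPRY2, a feedback inhibitor of receptor kinases, at 2944 and 571 (-1.75), while MYC stood at 1721 and 1086 (0.00). Of 16 melanocyte genes 3 were higher and 3 lower, but 1 and 9 without scaling (median -1.25). SOX10, the factor that specifies the melanocyte lineage, was at 1669 and 90.8 (-3.66), and its target MITF at 306 and 63.5 (at least 2.05-fold lower, with its probes in disagreement), whereas GPNMB, a melanosome glycoprotein, stood at 5028 and 6533 (0.24) and the calcium-binding S100A1 was higher at 334 and 765 (2.40). Among 8 SOX genes 4 were higher and 2 lower, and 4 and 4 without scaling, with SOX4 at 113 and 279 (2.77) and SOX3 detected only after the combination (51.4 and 294, at least 11.3-fold higher). SOX12, also higher, was likewise detected only after the combination, and the 2 lower genes, SOX6 and SOX13, in untreated cells only. In the Wnt pathway 3 of 19 were higher and 7 lower: beside DKK1, AXIN2, a feedback inhibitor that Wnt signalling induces, was higher at 83.9 and 265 (3.15), and the kinase GSK3B was at 438 and 58.0 (at least 3.07-fold lower). THBS1, a TGF-beta-responsive matrix protein, was at 9088 and 1641 (-2.37), and 4 of 26 such matrix and YAP genes were higher and 9 lower.

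Genes for making ribosomes were lower, and most ribosomal protein genes were not. Of 80 ribosome biogenesis genes 5 were higher and 45 lower, with a median of -1.22, and 62 were lower without scaling (median -2.11). The untreated array alone brought in 19 of the 80, which favours lower differences, and over the 61 detected on both arrays the median was -0.97. DKC1, the pseudouridine synthase of nucleolar RNPs, was at 3741 and 204 (-3.58) and RRS1 at 1053 and 69.7 (at least 8.70-fold lower). Of 74 cytosolic ribosomal proteins 7 were higher and 2 lower, with a median of 0.13 that was 0.36 without scaling, 1.58 when arrays were scaled on the probes detected on all 4 (chosen after seeing the data), and turned to -0.13 with cyclic loess and -0.15 in the authors' values. In 59 of the 74 the deposited signal was higher after the combination, against 1881 of all 9007 genes. RPL14 was at 1292 and 3606 (1.95). Mitochondrial ribosomal proteins went the other way, with 6 of 77 higher and 29 lower (median -0.57), and MRPS30 at 2296 and 143 (-3.31). Among 27 RNA polymerase subunits 6 were higher and 10 lower; POLR2A, the largest subunit of RNA polymerase II, was at 1437 and 3503 (1.72), and POLR1D, shared by polymerases I and III, at 7719 and 858 (-2.89, not shared by its other probes).

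Genes of mRNA decay and of the nuclear envelope and pore were mostly lower, and other lists of RNA and chromatin handling lay nearer to the 28.2% of all genes that were lower. Of 41 mRNA decay genes 4 were higher and 24 lower (median -1.23, and -2.27 without scaling), among them the deadenylase CNOT7 at 1203 and 138 (-2.21). Of 37 genes of the nuclear envelope and pore 2 were higher and 20 lower (median -1.28, and -2.06 without scaling). The untreated array alone brought in 9 of these 37 and 11 of the 41 mRNA decay genes, which favours lower differences. With both arrays required, the medians were -0.65 for the envelope and pore and -1.26 for mRNA decay, against 0.29 for all genes. LMNB1, a lamin of the inner nuclear membrane, was at 962 and 86.9 (-2.78), and the pore proteins POM121 at 2806 and 206 (-3.08) and TPR at 835 and 66.5 (at least 6.59-fold lower). Of 75 splicing factors 5 were higher and 26 lower (median -0.38); SRSF1 was at 5333 and 433 (-3.16), and HNRNPU, a scaffold of nuclear RNA, higher at 364 and 784 (2.29). Of 60 genes of Mediator, TFIID and TFIIH 3 were higher and 24 lower, with the kinase CDK7 at 603 and 59.7 (at least 4.52-fold lower). Here 26 of the 60 were included only through the untreated array, and the median over the 34 detected on both was -0.31. Of 208 zinc finger genes 31 were higher and 72 lower (median -0.70), from ZNF146 (1320 and 57.6, at least 11.8-fold lower) to ZNF280A, detected only after the combination (67.4 and 191, at least 7.31-fold higher). But 122 of the 208 were included only through the untreated array, which favours lower differences. Over the 83 zinc finger genes detected on both arrays the median was 0.65, above the 0.29 of all such genes. Of 53 histone chaperones and modifiers 9 were higher and 19 lower. The untreated array alone brought in 17 of the 53, and the median over the 36 detected on both was -0.44. The remodeller CHD1 was at 838 and 57.7 (at least 6.62-fold lower) and the polycomb subunit SUZ12 at 3712 and 451 (-2.45).

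Genes of antigen presentation, lysosomes and respiration lay above the median of all genes on the quantile-normalized, loess, unscaled and authors' scales. Of 33 genes of antigen presentation 18 were higher and 2 lower, with a median of 1.08, but 2 and 5 without scaling (median 0.51). HLA-F was at 410 and 857 (2.21) and HLA-B at 722 and 1352 (1.81), and CIITA, the coactivator of class II genes, was detected in untreated cells only (204 and 54.6, at least 1.32-fold lower). Members of the HLA family can share probe targets and are uncertain one by one. Of 45 lysosome and autophagy genes 22 were higher and 4 lower (median 0.96), with 0 higher and 12 lower without scaling (median 0.23); the protease CTSB was at 515 and 933 (1.95) and CTSH at 489 and 937 (2.05), while the proton pump subunit ATP6V1B2 was at 5787 and 420 (-3.34) and ATG3 at 1459 and 177 (-2.15). Of 69 respiratory chain genes 14 were higher and 2 lower (median 0.43), but 5 and 7 without scaling (median 0.47), with NDUFA13 at 1092 and 2240 (1.68) and COX6A1 at 2368 and 5354 (1.32).

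Metabolic and stress lists were mixed. In the lists counted here, the share of lower genes ran from 0% (metallothionein and zinc) to 28.6% (heat shock), against 28.2% of all genes. The share of higher genes ran from 8.57% (heat shock) to 30.8% (cholesterol and lipid), against 19.7% of all genes. Of 35 glycolysis and hypoxia genes 9 were higher and 7 lower, but 2 and 11 without scaling: SLC2A1, the glucose transporter GLUT1, was at 2015 and 109 (-3.60) and LDHA, which makes lactate, at 18184 and 2486 (-2.86), whereas the aldolase ALDOC was at 589 and 1379 (2.17). Of 26 cholesterol and lipid genes 8 were higher and 6 lower, but 0 and 12 without scaling, with SQLE, a rate-limiting enzyme of sterol synthesis, at 1244 and 79.7 (at least 10.9-fold lower). Of 30 nucleotide synthesis genes 3 were higher and 7 lower, with GMPS, which makes GMP, at 2596 and 248 (-2.66). Of 35 heat shock genes 3 were higher and 10 lower; HSPA8, the constitutive HSP70, was at 12765 and 1534 (-2.95), and HSPA6, a strongly stress-induced HSP70, was detected only after the combination (52.96 and 228, at least 8.77-fold higher). Of 34 genes of the unfolded protein response 5 were higher and 4 lower, but 0 and 20 without scaling, with XBP1 at 1846 and 232 (-2.14). NFE2L2, the factor NRF2 that drives antioxidant genes, was at 1462 and 143 (-2.51). The metal-binding metallothionein MT1E was detected only after the combination (62.4 and 216, at least 8.35-fold higher), and 4 of 15 metallothionein and zinc genes were higher and 0 lower, and 2 and 2 without scaling. Of 40 proteasome genes 4 were higher and 10 lower, with PSMC6 at 2958 and 170 (-3.47).

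Innate immune genes did not move together. Of 25 interferon-stimulated genes 8 were higher and 4 lower (median 0.21), but 3 and 13 without scaling (median -1.02). The untreated array alone brought in 11 of the 25, which favours lower differences, and the combination array alone 2. In the 12 detected on both arrays the quantile-normalized median was 1.03, above the 0.29 of all genes detected on both. Of 17 NF-kB and inflammatory genes 3 were higher and 4 lower; PTGS2, the inducible cyclooxygenase, was at 75.02 and 224 (3.09), the chemokine CCL2 was detected only after the combination (42.9 and 104, at least 3.45-fold higher), and NFKB1 was at 2636 and 512 (-1.69). Of 20 cancer-testis antigens, which are normally limited to the germ line, 11 were higher and 1 lower (median 1.37, and 0.26 without scaling). But 6 of the 20 were included only through the combination array, which favours higher differences, and 4 only through the untreated array. Over the 10 detected on both arrays the median was 1.04. The X-linked relatives VCX (99.8 and 437, 3.59) and VCX3A (124 and 474, 3.35) stood beside VCX3B, and SPANXA1 was detected only after the combination (51.9 and 169, at least 6.38-fold higher), while MAGEC2 stood at 4534 and 5970 (0.33). Members of both the VCX and SPANX families are near-identical and uncertain one by one.

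Markers of other cell types were mostly not detected. Of 8 immune markers 1 was detected untreated and 2 after the combination, CD68 at 591 and 1275 (2.07) and CD14 at 57.2 and 336 (at least 12.9-fold higher), and their summed signal was 962 and 1920. The defining immune markers PTPRC (51.4 and 56.8) and CD3E (45.7 and 45.6) were not detected on either array. Of 9 fibroblast markers 2 were detected on each array, with a summed signal of 536 and 582. Of 7 keratinocyte markers 1 was detected on each (887 and 493 in sum), and of 6 endothelial markers 1 (321 and 329 in sum). Their part in the results was not tested.

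**Figure D3:**
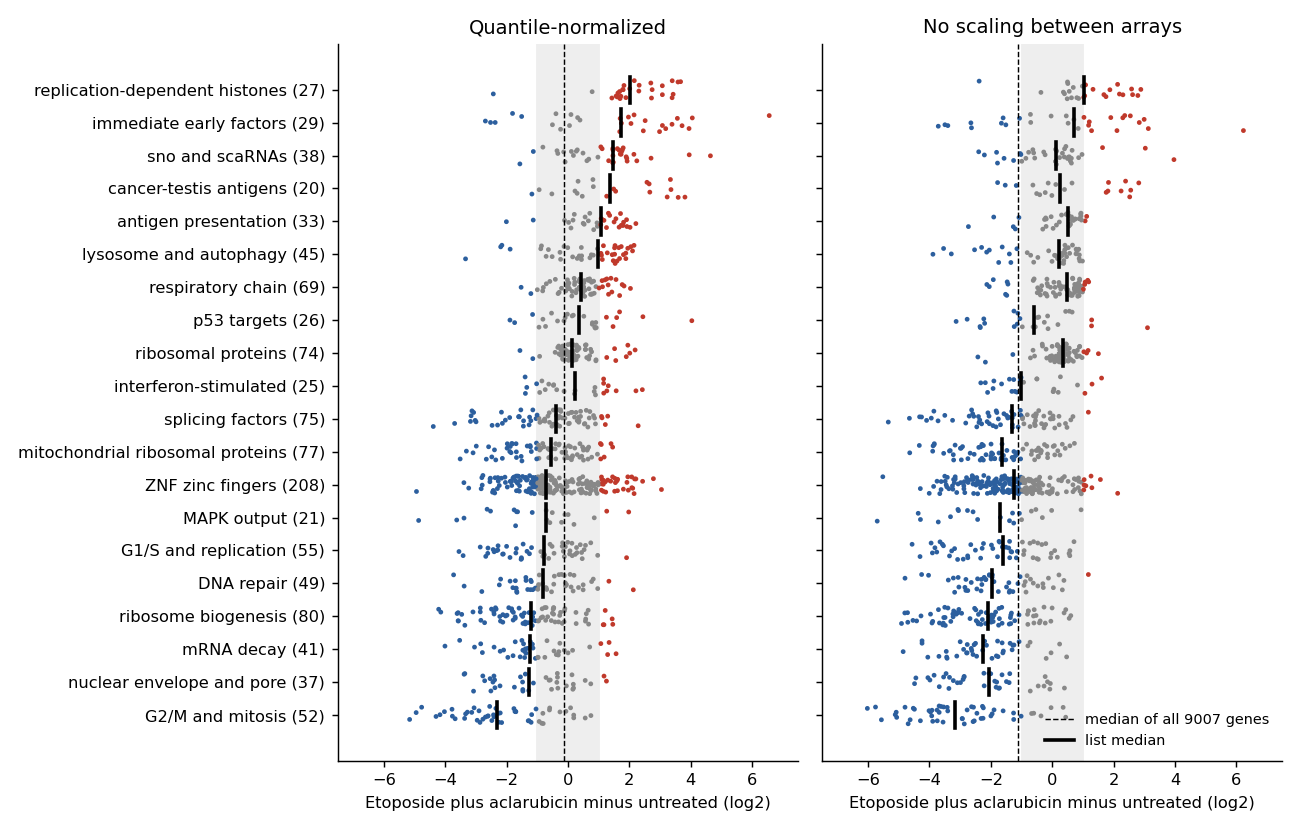
Log2 difference between the etoposide plus aclarubicin array and the untreated array for the measured members of 20 gene lists (1 point per gene, number measured in parentheses), quantile-normalized on the left and without scaling on the right; thick bars are list medians, the dashed line is the median of all 9007 genes and grey marks differences under 2-fold. Most histone and immediate early genes sit right of the all-gene median and most G2/M genes left of it in both panels, while the whole cloud moves left without scaling, from an all-gene median of -0.13 to -1.13.

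Longer genes were lower. The span of a gene, from first to last base of its annotation on GRCh38.p14, was known for 9001 genes. The median difference was 0.61 in 989 genes under 5 kb, 0.17 in 2535 of 5 to 20 kb, -0.19 in 2473 of 20 to 50 kb, -0.51 in 1495 of 50 to 100 kb, -0.85 in 964 of 100 to 200 kb and -0.86 in 545 genes over 200 kb. Without scaling the same medians were -0.18, -0.78, -1.20, -1.48, -1.74 and -1.66, so the order was kept except between the last pair of bins. The share of genes at least 2-fold lower was 13.2% under 5 kb and 44.6% over 200 kb, and the share at least 2-fold higher was 37.4% and 11.2%.

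The order also held within 3 equal classes of untreated level. In the dimmest class the median was 0.77 in genes under 20 kb and -0.70 in genes over 100 kb. In the middle class these were 0.38 and -1.03, and in the brightest class 0.01 and -1.04. It did not hold throughout among genes detected on both arrays, where the median was 0.72 under 5 kb, -0.15 from 100 to 200 kb and 0.18 over 200 kb. Of genes over 200 kb, 56.0% were detected in untreated cells only, against 16.4% of genes under 5 kb. Median span was 3.26 kb in the genes at least 8-fold higher, 28.9 kb in all genes and 59.7 kb in the genes at least 8-fold lower. ID2 spans 2406 bases, ID1 1222 and GADD45B 2131, whereas ACTA2 (56264) and ATF3 (55371) were longer, and DKK1 (3377) was short but lower. On the doxorubicin array the median against untreated was -0.07 under 5 kb and -0.56 over 200 kb, and on the aclarubicin array 0.39 and -0.40; all 3 comparisons share the untreated array. GC content of the promoter ordered the genes little, with medians of -0.19 in the lowest and -0.05 in the highest quartile.

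**Figure D4:**
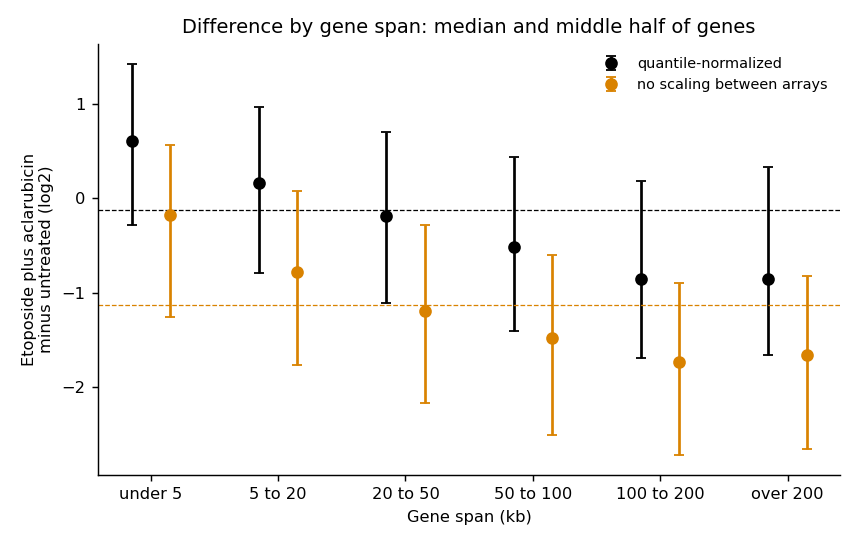
Log2 difference between the etoposide plus aclarubicin array and the untreated array by gene span in kb, quantile-normalized (black) and without scaling (orange); points are medians, bars the quartiles of the genes and dashed lines the medians of all genes. The median steps down from 0.61 to -0.86 after normalization and from -0.18 to -1.66 without it.

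The other 2 treated arrays are given only to place the leading genes, and they share the untreated array. ID2 was at 6663 after aclarubicin alone and 686 after doxorubicin, beside 8131 after the combination. FOSB was at 3111 and 316, and GADD45B at 1911 and 121, beside 4276 and 2506. RN7SK was at 6331 and 4678, so it was bright on all 3 treated arrays. SOX2 was at 541 and 151, beside 965 after the combination, a log2 difference of 1.03 between the combination and aclarubicin alone. EGR1 was at 854 after aclarubicin and 2079 after doxorubicin, above the 1066 of the combination. DKK1 was at 145 after aclarubicin and 6251 after doxorubicin, and SOX10 at 120 and 1161. CCNA2 was at 124 and 1383, and TOP2A at 788 and 2812, beside 80.5 and 394 after the combination. CDKN1A was at 461 after aclarubicin and 11823 after doxorubicin, beside 658 after the combination and 727 untreated. The deposited signals after the combination thus lay nearer to those of aclarubicin alone than to those of doxorubicin in ID2, FOSB, GADD45B, DKK1, SOX10, CCNA2, TOP2A and CDKN1A. GAPDH and ACTB, common reference genes, differed between the combination and untreated arrays by 0.08 and 0.14 after normalization and by 0.38 and 0.30 without scaling.

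**Figure D5:**
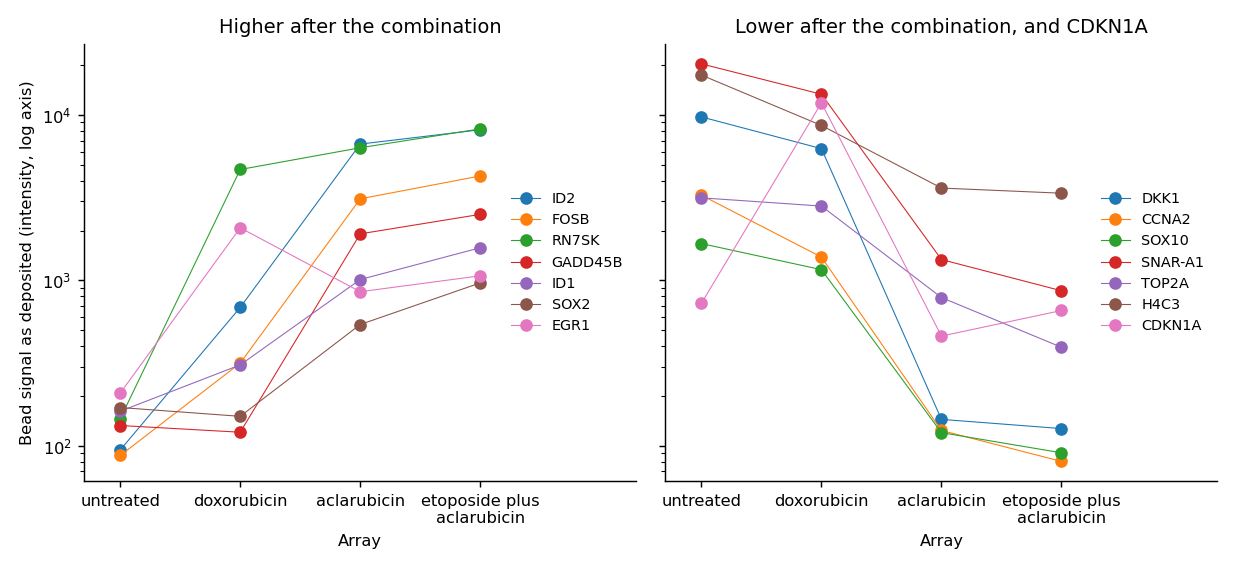
Deposited bead signal (log axis) of 14 genes on the 4 arrays of the series, 1 array per group; lines only join the points of a gene. ID2, FOSB and GADD45B are bright and DKK1, SOX10 and CCNA2 dim on both arrays that had aclarubicin, whereas CDKN1A is bright, at 11823, on the doxorubicin array.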

How the data were processed

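MelJuSo RNA was hybridised to 1-colour Illumina beadchips, 1 array per group, with groups taken from the treatment label. The authors deposited non-normalized bead intensity values with a detection p-value per probe and array, per the file headers. The authors also deposited normalized values on an apparent log2 scale. The submitters' processing notes name lumi; its settings, and the scale and centring of those values, are not known here, so they served only as an alternative.

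Background was removed from the intensities with normexp in limma 3.58.1 (R 4.3.3), using detection p to infer the negative controls and an offset of 16. Quantile normalization over 4 arrays and log2 followed. The platform annotation gave 1 symbol to 27578 of 48803 probes, several to 13 and none to 21212. By Entrez identifier, 27541 probes were found in a current gene table, with 0 symbols changed. The 11683 qualifying probes gave 9007 genes, each represented by its brightest probe over the 2 arrays. A difference is combination minus untreated, called at 2-fold without a test. Unscaled values skip quantile normalization. The number of arrays limits the precision. A promoter entry was found for 83.3% of the genes and a span for 99.9%.

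The genes named are the 15 highest and 15 lowest detected on both arrays with all probes in 1 direction, up to 8 bounds each way, members of the lists described, and TOP1, TOP2A, TOP2B, CDKN1A, MDM2, H2AX, GAPDH and ACTB. A further gene of the rule is not reported here. The comparison, its 55 gene lists and these rules were chosen with earlier results of these data known. The name patterns of 4 lists (other small RNAs, translation factors, cancer-testis antigens and tubulins) were corrected after values had been seen, to drop genes whose names matched by accident. The gene table and calls were tested on simulated data. Python 3.11.15, numpy 2.4.6, pandas 2.3.3 and matplotlib 3.10.9 were used.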

Additional observations from a re-analysis of the deposited data

Results flagged for a closer look

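Probes without a gene symbol were outside the comparison. Of 21212 such probes, 2160 had a detection p under 0.01 on at least 1 of the 2 arrays, and 117 of these were detected only after etoposide plus aclarubicin and at least 2-fold higher there. What they target was not analysed here.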

How the results depend on the processing

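No paired analysis was possible because each group has 1 array, and for the same reason no array could be left out. The count of genes at least 2-fold higher was 1772 and of genes lower 2542, with 41.1% of changed genes higher. These became 284, 4824 and 5.56% without scaling between arrays, and 289, 4791 and 5.69% with median scaling over all probes. Scaling on the median of probes detected on all 4 arrays, chosen after seeing the data, gave 2357, 2147 and 52.3%. Probes detected on both arrays gave 1602, 1064 and 60.1%, by construction with fewer genes. At 1.5-fold the counts were 2731 and 3477, and at 3-fold 740 and 1481. Under cyclic loess, quantile normalization over the 2 arrays, no background correction, an offset of 50, the authors' values, the mean over probes, a detection p under 0.05 and no detection filter, both counts stayed within 1.5 times. All 12 list medians of at least 1 in size kept their sign in 144 of 144 values. The 12 include the fibroblast, immune and endothelial marker lists, with only 2, 2 and 1 measured genes. Detection p under 0.05 and no detection filter moved no list median or named gene by more than the probe disagreement. These settings therefore add little to the counts of kept signs. Of 151 named genes of that size, the sign was kept in 1766 of 1768 values; TDP1 turned to -0.26 in the mean over probes and CCNT1 to 0.31 on its probe detected on both arrays, since the probes of each disagree. Dim signal limits the size of a fold: genes near background have a bound only, and an offset of 50 in place of 16 moved 65 of 166 named genes by more than the probe disagreement.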
